A study of Mus musculus with 10 samples.

Results

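The genes described here are 10 tubulin and tubulin-modifying genes of the mouse left ventricle, chosen by symbol because tubulin is a substrate of the deacetylase Hdac6. They comprise the α-tubulins Tuba1a, Tuba1b and Tuba4a, the β-tubulins Tubb2a, Tubb4b and Tubb5, and the enzyme genes Atat1, Ttl, Vash1 and Svbp. All 10 were found among 29564 listed genes, with Svbp under its older symbol Ccdc23, and all 10 passed the filter on low counts that left 13297 genes for testing. RNA was sequenced from the left ventricle of 5 Control and 5 HFD+mTAC mice, all wild type, of strain C57BL6 (C57BL/6J in the study's methods) and labelled as given vehicle. The labels' protocol describes that vehicle (DMSO, PEG-300 and water, at 10 mL/kg per day for 6 to 9 weeks) for HFD+mTAC mice only, so the dosing of the Control mice is known only as vehicle. HFD+mTAC combines a high-fat diet, with 60% of calories from fat against 10% in chow, and moderate transverse aortic constriction, a narrowing of the aorta set with a 24-gauge needle in male mice of 11 weeks of age. The study uses the combination, induced over 16 weeks, to model HFpEF, the form of heart failure in which ejection fraction is preserved. Controls in the study ate chow and had no constriction, and its methods describe no sham operation. Diet, surgery and constriction were applied together, so their separate contributions cannot be told apart. The comparison asks whether the mRNA of the microtubule subunits, and of the enzymes that acetylate, detyrosinate or retyrosinate them, differed between these hearts.

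Microtubules are polymers of α- and β-tubulin dimers, and most α-tubulin genes encode a terminal tyrosine. Vasohibin-1, encoded by Vash1, cuts this tyrosine off in a complex with its partner, encoded by Svbp, and tubulin tyrosine ligase, encoded by Ttl, puts it back onto free dimers. Atat1 acetylates a lysine on the inner face of the microtubule, and Hdac6 and Sirt2 remove the acetyl group. In cardiomyocytes, detyrosinated microtubules are known to couple to the sarcomere and to resist its shortening and relengthening.

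The ends of coding sequences show which genes encode the terminal tyrosine. They are printed 5′ to 3′ on the coding strand from GENCODE transcripts of GRCm38, with the last codon before the stop in capitals.
Tuba1b, chr15:98931582-98931611, minus strand: gagggggaggaagaaggagaggagTACtaa
Tuba1c, chr15:99037980-99038009, plus strand: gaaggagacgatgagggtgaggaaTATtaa
Tuba4a, chr1:75215622-75215651, minus strand: tatgaggacgaggatgagggagaaGAGtag
Tuba8, chr6:121226050-121226079, plus strand: gaagaagagaatgagggggaggaaTTTtaa
Tubb4b, chr2:25222308-25222337, minus strand: gaggaggaggctgaggaggaggtgGCTtag
The last codon was tyrosine in Tuba1b and Tuba1c, glutamate in Tuba4a, phenylalanine in Tuba8 and alanine in Tubb4b, as also in Tubb2a and Tubb5. Tuba4a mRNA therefore encodes an α-tubulin that lacks the terminal tyrosine from the start.

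The window around codon 40, the acetylated position, is shown next with that codon in capitals.
Tuba1a, chr15:98951563-98951589, minus strand: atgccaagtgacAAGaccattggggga
Tuba4a, chr1:75217306-75217332, minus strand: atgcccagcgatAAGaccattggtgga
Tuba8, chr6:121220486-121220512, plus strand: tttggcactcagGCCagcaagatcaac
Codon 40 was lysine in Tuba1a and Tuba4a, and the windows of Tuba1b and Tuba1c were the same as that of Tuba1a. It was alanine in Tuba8, whose product thus carries no lysine at that position.

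Libraries held 34.2 to 53.7 M estimated counts (M, 1000000), of which 12.7 to 21.1 M fell on the genes tested. The group totals gave p = 0.444 for all counts and p = 0.198 for the genes tested (two-sided exact permutation test). Mitochondrially encoded transcripts took 43.8 to 52.7% of counts. TT-587 (Control) and TT-591 (HFD+mTAC) had the lowest mean correlations with their own groups, at 0.964 and 0.967. The 9 cardiomyocyte markers (Myh6, Tnnt2, Tnni3, Actc1, Ryr2, Pln, Actn2, Myl2 and Ttn) were abundant in all mice. Their sum was 67698.5 to 73466 CPM (counts per 1000000 counts on the genes tested, after TMM scaling) in Control and 58151 to 67158.5 CPM in HFD+mTAC mice, and the ranges did not overlap (exact permutation p = 0.00794, the smallest that 5 against 5 mice allow; adjusted over the 10 marker lists with a gene tested, 0.0794). TPM (transcripts per 1000000 transcripts) correct for transcript length, and were taken as deposited, with mitochondrially encoded transcripts included. As TPM, the cardiomyocyte sum was 18604 to 23701 against 16345 to 19979 (exact permutation p = 0.0159, adjusted 0.0582 over 11 lists). The sum of the 6 proliferating cell markers was 1.46 to 3.62 TPM in Control and 2.59 to 4.77 TPM in HFD+mTAC mice (exact permutation p = 0.0159, adjusted 0.0582). By CPM it was 17.4 to 56.4 against 40.2 to 64.1 (exact permutation p = 0.0397, adjusted 0.198). The 3 atrial myocyte markers summed to 1.37 to 2.51 TPM in Control and 0.824 to 1.17 TPM in HFD+mTAC mice (exact permutation p = 0.00794, adjusted 0.0582). Of these 3 only Myl4 passed the filter, at 2.26 to 5.03 CPM in Control and 2.15 to 2.78 CPM in HFD+mTAC mice (exact permutation p = 0.111). The other lists gave adjusted p of 0.567 or more as TPM. The log2 ratio of the TPM sums was −0.25 for cardiomyocyte, −0.24 for fibroblast, −0.27 for smooth muscle and pericyte, −0.24 for macrophage and −0.29 for erythroid markers. It was −0.14 for endothelial, 0.06 for Schwann cell and neuron and 0.37 for lymphocyte markers. As TPM, a lower sum was thus not particular to cardiomyocyte markers. By CPM the log2 ratio was −0.19 for cardiomyocyte and −0.18 for erythroid markers. It was −0.01 for fibroblast, −0.05 for smooth muscle and pericyte and −0.07 for macrophage markers. Endothelial markers had 0.04, Schwann cell and neuron markers 0.01 and lymphocyte markers 0.25. Of these lists, only the cardiomyocyte sum had CPM ranges that did not overlap between the groups. In bulk tissue, fewer cells of a type and less RNA per cell cannot be told apart.

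None of the 10 genes passed the threshold of adjusted p below 0.05 (edgeR's quasi-likelihood test, Benjamini-Hochberg over 13297 genes), where 8 genes, 0.0602% of those tested, did. DESeq2 also called 0 of the 10, against 118 of 13287 genes (0.888%). At an unadjusted p below 0.05, Tuba4a and Tubb4b were counted, or 2 of 10, against 1099 of 13297 genes (8.27%). In no member did the CPM values of the groups stand fully apart, which held for 261 of the genes tested (1.96%). Values lay above 0 for 5 members and below 0 for 5, and their median log2 fold change was −0.00424, against 0.00138 over all genes tested. The 6 tubulins except Tubb5 had a value below 0 and the 4 enzyme genes a value above 0. With limma on log2(TPM + 1), where TPM were rescaled to the genes tested, Tuba1a and Tuba1b lay just above 0 and Tubb5 below it. As deposited, the mean TPM of Tuba1a was 20.5 in Control and 17.95 in HFD+mTAC mice, and that of Tuba1b 21.9 and 19.7. Svbp lay below 0 without TT-587 and TT-591.

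**Figure D1:**
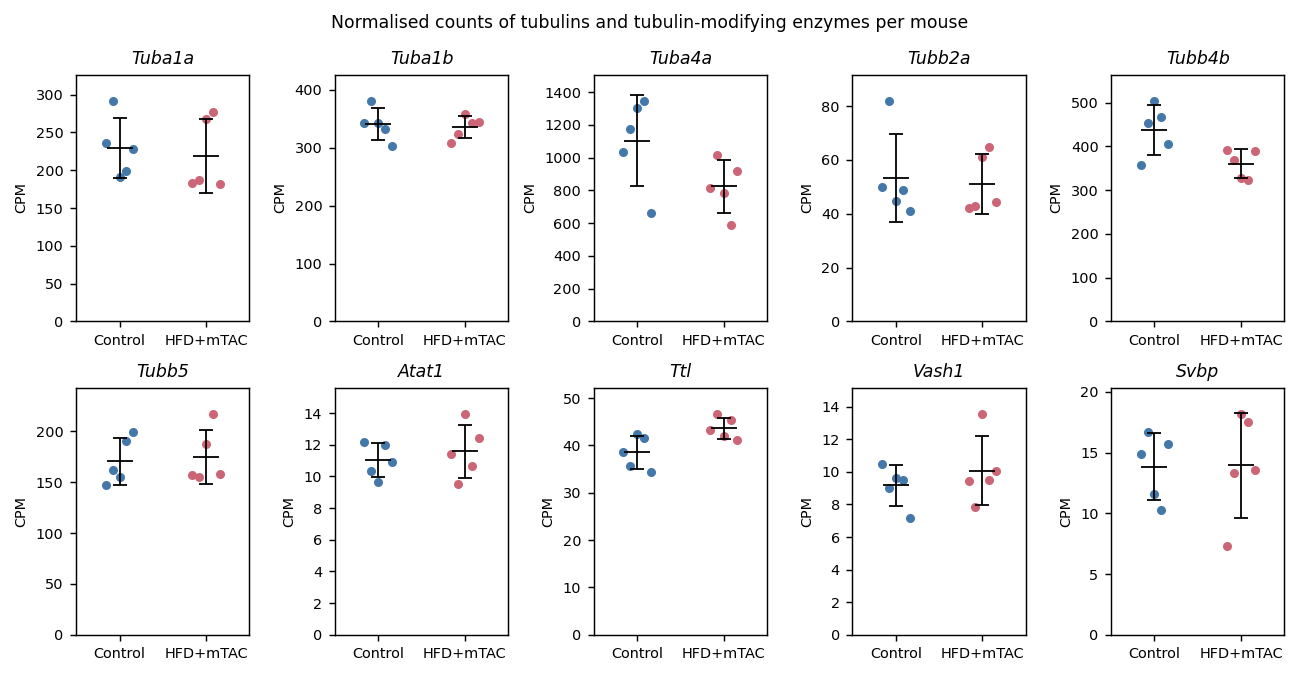
CPM (vertical axis, from 0) of each of the 10 genes in the 5 Control (blue) and 5 HFD+mTAC (red) mice; horizontal marks and bars are the mean and SD. The groups overlap in every panel, and Tuba4a and Tubb4b show the largest shift towards lower values.

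Tuba4a (chr1:75214228-75219865, minus strand), the α-tubulin without an encoded tyrosine, was the most abundant member. Control mice TT-583 to TT-587 had 1034, 1177, 1304, 1347 and 663 CPM, while TT-588 to TT-592, the HFD+mTAC mice, had 818, 1019, 787, 588.2 and 916 CPM. All HFD+mTAC mice lay below 4 of the 5 Control mice, and the exception was TT-587, the Control mouse least like its group. The log2 fold change was −0.42 (SE 0.19, 95% interval −0.83 to −0.01), with an edgeR adjusted p of 0.587. Without TT-587 it was −0.56, without TT-591 it was −0.32, and without both it was −0.46. When the deposited transcript lengths entered the fit as an offset it was −0.30, and limma on log2(TPM + 1) gave −0.22. The cardiomyocyte marker sum, given above, did not overlap between the groups as CPM, and its part in the values of Tuba4a and Tubb4b was not tested.

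Tuba1a (chr15:98949837-98953703, minus strand) and Tuba1b (chr15:98931425-98934565, minus strand) encode the common tyrosinated α-tubulins. Tuba1a was at 236, 292, 191, 199 and 228 CPM in Control mice and at 183, 187, 268, 277 and 182 CPM in HFD+mTAC mice. In the HFD+mTAC group the values fell apart into TT-590 and TT-591, near the highest Control mouse, and the other 3, below the lowest. Tuba1a thus had a log2 fold change of −0.06 (SE 0.15, 95% interval −0.40 to 0.27; edgeR adjusted p = 0.949). Tuba1b varied least of the 6 tubulin members, with a coefficient of variation of 8.13% in Control and 5.79% in HFD+mTAC mice. Its mean was 340.1 ± 27.7 CPM (SD, n = 5) in Control and 336 ± 19.4 CPM (SD, n = 5) in HFD+mTAC mice, and the log2 fold change was −0.02 (SE 0.08, 95% interval −0.19 to 0.15; edgeR adjusted p = 0.973).

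The coding sequences of Tuba1a and Tuba1b were identical at 98.3% of 1356 bases, and 77.0% and 75.4% of their 31-base words also occurred in transcripts of other genes, so the split of reads between them is uncertain. All their estimated counts were fractional, more than 0.01 from a whole number, whereas those of Tuba4a, Tubb5 and the 4 enzyme genes were whole in every mouse. The sum of Tuba1a, Tuba1b and Tuba1c, which does not depend on that split, was 629 ± 61.7 CPM in Control and 599 ± 67.5 CPM in HFD+mTAC mice (SD, n = 5), which gave a log2 fold change of −0.07 (SE 0.10). A protein-coding gene model, Gm49450, also overlaps both loci on the same strand.

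Tubb4b (chr2:25222160-25224702, minus strand) was the most abundant β-tubulin. Control mice had 356, 453, 504, 467 and 405 CPM, and HFD+mTAC mice had 392, 368, 328, 323 and 390.2 CPM. Of the Control mice 4 lay above all HFD+mTAC mice, and TT-583 lay among them. Its log2 fold change was −0.28 (SE 0.10, 95% interval −0.50 to −0.05), with an unadjusted p of 0.0196 and an adjusted p of 0.478 by edgeR. It stayed between −0.34 and −0.22 when any 1 mouse was left out. Of its 31-base words 64.6% occurred in other genes, 54.5% in the pseudogene Tubb4b-ps1.

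Tubb5 (chr17:35833921-35838306, minus strand), another widely expressed β-tubulin, was at 147, 162, 155, 190.2 and 199 CPM in Control and 157, 155, 187, 217 and 158 CPM in HFD+mTAC mice. The highest value of each group was in TT-587 and TT-591, the mice in which Tuba4a was lowest. For Tubb5 the log2 fold change was 0.04 (SE 0.12, 95% interval −0.22 to 0.30; edgeR adjusted p = 0.963), and it was −0.11 with the length offset. The effective length deposited for Tubb5 ranged from 3705 to 9006 bases between mice, and the highest, in TT-589, went with the lowest TPM, 2.24, although its CPM there was within the range of the other mice.

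Tubb2a (chr13:34074274-34078007, minus strand), a β-tubulin best known from neurons, was at 50.0, 81.9, 44.7, 49.0 and 41.2 CPM in Control and 42.2, 42.8, 61.2, 64.8 and 44.4 CPM in HFD+mTAC mice. TT-584 stood above all other mice, and TT-590 and TT-591 were again the higher of the HFD+mTAC group, as for Tuba1a. The log2 fold change was −0.07 (SE 0.19, 95% interval −0.48 to 0.35; edgeR adjusted p = 0.959) and 0.14 without TT-584. Tubb2a shared 51.1% of its 31-base words with Tubb2b, and the sum of the pair had the same log2 fold change, −0.07 (SE 0.19).

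**Figure D2:**
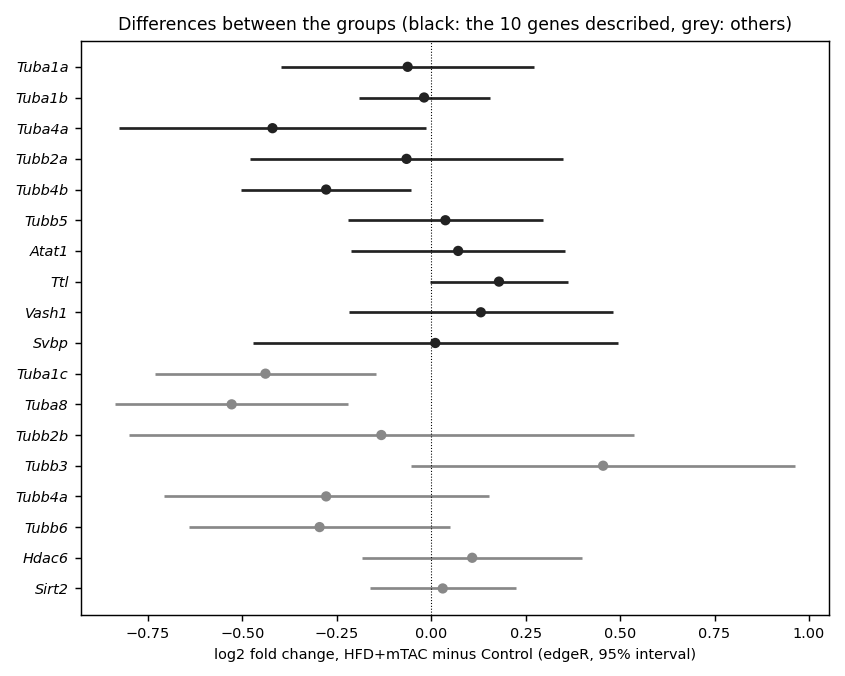
Log2 fold change, HFD+mTAC minus Control, with its 95% interval from edgeR (horizontal axis) for the 10 genes (black) and for other tubulins, Hdac6 and Sirt2 (grey). Among the 10, only the intervals of Tuba4a and Tubb4b lie wholly below 0 before adjustment, and none passed the adjusted threshold.

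Of the enzymes, Ttl (chr2:129065942-129096283, plus strand), which re-adds the tyrosine, came nearest to a difference by edgeR without the length offset. It was at 38.6, 35.6, 42.3, 41.7 and 34.4 CPM in Control and at 43.2, 46.6, 42.0, 45.3 and 41.1 CPM in HFD+mTAC mice. All 5 HFD+mTAC mice lay above the Control median and 3 of them above every Control mouse. The log2 fold change was 0.18 (SE 0.08, 95% interval −0.003 to 0.36), with an edgeR p of 0.0536 and an adjusted p of 0.606. With the length offset it was 0.13 (SE 0.14; edgeR adjusted p = 0.866). On log2(TPM + 1) limma gave 0.15 (SE 0.13; limma adjusted p = 0.882). In both of these, Atat1, described below, had the lower adjusted p. The deposited mean TPM of Ttl was 0.650 in Control and 0.644 in HFD+mTAC mice.

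Vash1 (chr12:86678700-86692091, plus strand), which encodes a detyrosinating enzyme, was at 10.5, 9.04, 9.65, 9.52 and 7.16 CPM in Control and at 9.42, 7.86, 13.5, 9.49 and 10.1 CPM in HFD+mTAC mice. A single mouse, TT-590, exceeded the Control range. The log2 fold change was 0.13 (SE 0.16, 95% interval −0.22 to 0.48; edgeR adjusted p = 0.898), and it was 0.002 without TT-590 and 0.06 without TT-587. Its partner gene Svbp (chr4:119195306-119201298, plus strand) was at 14.9, 16.7, 11.6, 10.3 and 15.7 CPM in Control and at 7.30, 13.3, 18.1, 17.5 and 13.6 CPM in HFD+mTAC mice. The HFD+mTAC group held both the lowest and the highest value, and the log2 fold change was 0.01 (SE 0.22, 95% interval −0.47 to 0.49; edgeR adjusted p = 0.996).

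Atat1 (chr17:35897595-35910075, minus strand), the acetyltransferase, was at 12.1, 10.4, 9.65, 11.98 and 10.9 CPM in Control and at 11.4, 9.50, 13.9, 10.7 and 12.4 CPM in HFD+mTAC mice. The groups overlapped over almost their whole range, with a log2 fold change of 0.07 (SE 0.13, 95% interval −0.21 to 0.35; edgeR adjusted p = 0.928). Where transcript length entered, the value was larger, 0.35 with the length offset (SE 0.25; edgeR adjusted p = 0.782) and 0.37 with limma on log2(TPM + 1) (SE 0.23; limma adjusted p = 0.811). The deposited effective length of Atat1 averaged 1225 bases in Control and 1007 bases in HFD+mTAC mice. Of the deacetylases that act on the same lysine, Hdac6 was 22.9 ± 3.95 CPM in Control and 24.7 ± 3.19 CPM in HFD+mTAC mice (SD, n = 5), with a log2 fold change of 0.11 (SE 0.13; edgeR adjusted p = 0.899). Sirt2 was 136 ± 8.94 and 139 ± 14.8 CPM (SD, n = 5), a log2 fold change of 0.03 (SE 0.09; edgeR adjusted p = 0.959). These are mRNA levels, and tubulin acetylation and detyrosination themselves were not measured here. In hearts of this model the study reported more Hdac6 protein than in controls, with tubulin acetylation alike in both groups.

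To compare levels between genes, values per length are needed, and the 2 scales available gave different orders. By the deposited TPM, averaged over all 10 mice, Tuba4a (248) stood far above Tuba1b (20.8), Tuba1a (19.2) and Tubb4b (18.1), whose ranges overlapped. Svbp (8.20), Tubb2a (6.2) and Tubb5 (5.24) followed with overlapping ranges, then Atat1 (1.63), Ttl (0.647) and Vash1 (0.340). By CPM per kilobase of the principal annotated transcript, the order was Tuba4a (339.9), Tubb4b (249), Tuba1b (194), Tuba1a (124), Tubb5 (65.2), Tubb2a (32.4), Svbp (19.0), Ttl (8.99), Atat1 (5.85) and Vash1 (3.70). On that scale Tuba4a exceeded Tubb4b in 9 of 10 mice, with overlapping ranges, and Tubb4b exceeded Tuba1b in 9 of 10. Tuba4a was first and Vash1 last by both.

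The scales differ in the length each gene is divided by. Tuba4a had a deposited effective length of 506 to 743 bases, while its principal transcript has 2840 bases and its shortest annotated transcript 346. Ttl had 7745 to 12172 bases, beyond its longest annotated transcript of 4567. Tubb4b was at 2923 to 3757 bases with an annotated 1598, and Svbp at 251 to 262 with 733. Tuba1a, with 1682 to 1892 bases, was close to its annotated 1803.

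**Figure D3:**
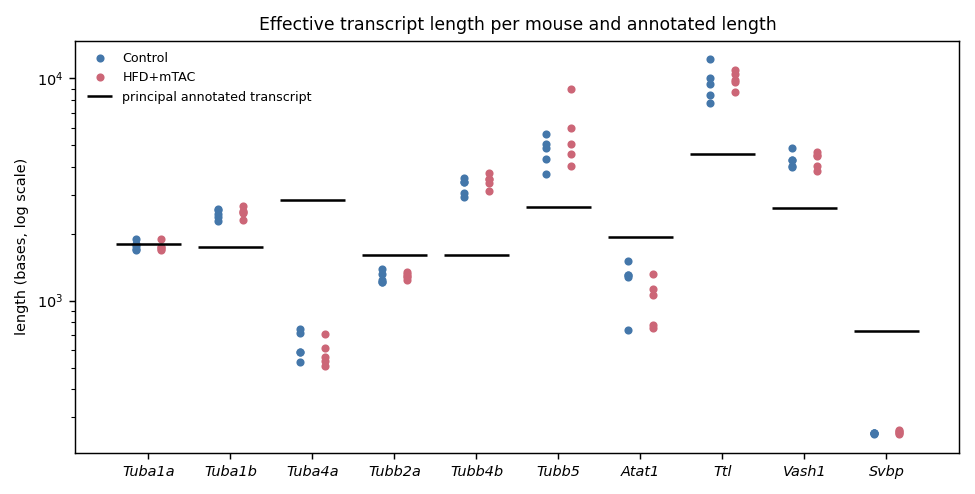
Deposited effective transcript length (vertical axis, bases, log scale) per Control (blue) and HFD+mTAC (red) mouse for the 10 genes, with the annotated length of the principal transcript as a black line. Tuba4a and Svbp lie farthest below their line, and Ttl, Tubb4b and Tubb5 lie farthest above theirs.

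Shares within a family, given as a description, follow from these levels. Tuba4a made up 81.8 ± 5.48% of α-tubulin TPM in Control and 80.5 ± 6.02% in HFD+mTAC mice, but 42.1 ± 5.41% and 38.7 ± 5.67% by CPM per kilobase (SD, n = 5). The tyrosine-encoding genes Tuba1a, Tuba1b and Tuba1c together held 14.5 ± 4.95% and 16.4 ± 5.68% of TPM, or 39.2 ± 6.29% and 45.3 ± 6.74% by CPM per kilobase. On either scale their share was highest in TT-587 within Control and in TT-591 within HFD+mTAC. Among β-tubulins, Tubb4b held 53.3% of TPM in Control and 49.9% in HFD+mTAC mice, and 68.7% and 65.1% by CPM per kilobase.

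**Figure D4:**
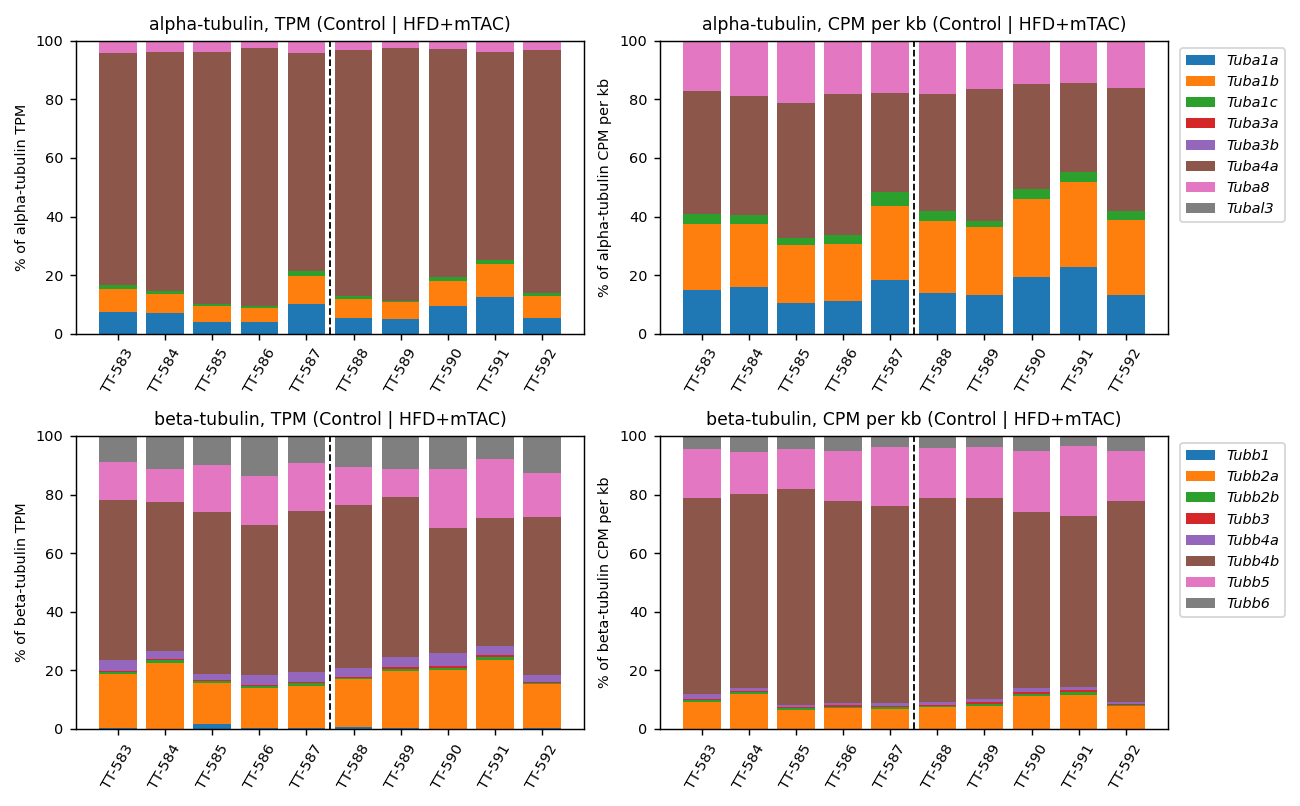
Share of each gene (vertical axis, percent) in the summed α-tubulin (top) and β-tubulin (bottom) level per mouse, by TPM (left) and by CPM per kilobase of annotated transcript (right); the dashed line separates Control from HFD+mTAC mice. Tuba4a takes over 70% of α-tubulin TPM in every mouse but under 50% by CPM per kilobase, and Tubb4b is the largest β-tubulin share in all panels.

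Members were compared across mice after subtraction of the group means. Of 45 pairs, 0 passed an adjusted p of 0.05 (exact permutation within groups, 14400 arrangements). The closest pair was Tuba1a and Tubb2a, with r = 0.874 (exact permutation p = 0.00965, adjusted 0.161) and Spearman's rho = 0.709 (exact permutation p = 0.0351, adjusted 0.316). Without the 2 mice farthest from the median of Tuba1a, r was 0.759. Tuba1b and Tubb2a had r = 0.836 (exact permutation p = 0.0108, adjusted 0.161) and rho = 0.842 (exact permutation p = 0.0102, adjusted 0.316), and r was 0.674 without the 2 farthest mice. Tuba4a and Tubb5 had the most negative value, r = −0.640 (exact permutation p = 0.0567, adjusted 0.378), with rho = −0.309 (exact permutation p = 0.416, adjusted 0.834). It became 0.124 without the 2 farthest mice, so the negative value rested on them.

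Among 9981 other genes with a mean of at least 5 CPM, the gene most like each member by the same measure was, as a description over 10 mice, Got1 for Tuba4a (r = 0.971), Arhgap10 for Tuba1a (0.978), Rnf216 for Tuba1b (0.957), F3 for Tubb4b (0.963), H2-T23 for Tubb5 (0.968) and Rin3 for Tubb2a (0.968). For the enzymes it was Tlr3 for Ttl (0.961), Hspb2 for Svbp (0.966), Idnk for Atat1 (0.931) and Nfkbil1 for Vash1 (0.911). Each r is the highest picked from 9981 genes over 10 mice, and shared regulation was not tested.

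The wider microtubule lists held 0 genes past the adjusted threshold. Of the other tubulins 11 of 14 were tested, 8 with a value below 0, and their median log2 fold change was −0.13. The lowest unadjusted p were those of Tuba8, the striated muscle and testis α-tubulin without the acetylated lysine, and of Tuba1c. Tuba8 was 389 ± 81.3 CPM in Control and 269.7 ± 31.5 CPM in HFD+mTAC mice (SD, n = 5), with a log2 fold change of −0.53 (SE 0.14; edgeR adjusted p = 0.277). Tuba1c was 59.6 ± 4.63 and 44.0 ± 8.84 CPM (SD, n = 5), a log2 fold change of −0.44 (SE 0.13; edgeR adjusted p = 0.357), and 4 of 5 HFD+mTAC mice lay below every Control mouse. Of the 31-base words of Tuba1c 63.9% occurred in other genes, and all its counts were fractional, so its split from Tuba1a and Tuba1b is likewise uncertain. Above 0, Tubb3 gave 0.45 (adjusted p = 0.658) and Tubd1 0.08 (adjusted p = 0.937) by edgeR.

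Of the other modifying enzymes 16 of 25 were tested, 9 above 0 and 7 below, with a median of 0.05. Ttll7, a glutamylase that extends the tubulin tail, gave a log2 fold change of 0.43 (SE 0.14; edgeR adjusted p = 0.401), and Lrrc49, a subunit of the polyglutamylase complex, 0.21 (adjusted p = 0.743). Ttll1, the catalytic subunit of that complex, gave −0.25 (SE 0.08; edgeR adjusted p = 0.362) and Ttll4 −0.19 (adjusted p = 0.771). Ttll6, Ttll8 and Ttll10 were at 0 in all mice.

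The list of tubulin folding and autoregulation holds tubulin cofactors, the CCT chaperonin, prefoldin and Ttc5. In it 20 of 21 tested genes had a value below 0 (95.2%, against 49.7% of all genes tested), with a median of −0.08. With the length offset, however, 13 of the 21 were below 0, and with limma on log2(TPM + 1) 11 of 21. The one-sidedness thus did not hold under these alternatives, and the cause was not tested. Cct8 of the CCT chaperonin had −0.20 (edgeR adjusted p = 0.504), Pfdn6 of prefoldin −0.23 (adjusted p = 0.657), and Tbcd, a tubulin cofactor and the only value above 0, 0.04 (adjusted p = 0.952). Of 33 tested microtubule-binding and regulating genes, 26 were above 0, with a median of 0.04, and 19 were above 0 with the length offset. In that list the destabiliser Stmn1 had 0.40 (adjusted p = 0.578) and Fignl1 0.88 (adjusted p = 0.473), while Mark1 had −0.30 and Clasp2 −0.18 by edgeR. The 6 proliferating cell markers all had values above 0, with a lowest edgeR adjusted p of 0.401, and their part in these values was not tested.

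**Figure D5:**
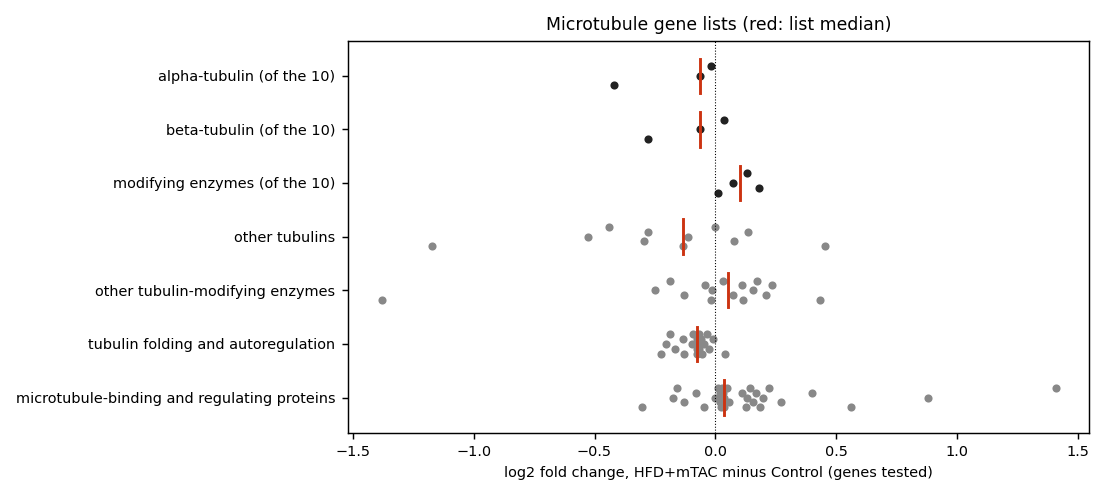
Log2 fold change, HFD+mTAC minus Control (horizontal axis), of each tested gene in the 3 groups of members (black) and 4 wider microtubule lists (grey), with list medians in red. Genes of tubulin folding and autoregulation cluster narrowly just below 0, and the values farthest from 0 are those of genes expressed at under 1.5 CPM.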

How the data were processed

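The members, lists and tests were chosen with earlier results of these data known. The coding end of 1 gene is not reported here. Per the study's methods, polyA RNA libraries (TruSeq Stranded mRNA) were trimmed (fastp), and salmon estimated transcript abundance against the GRCm38 GENCODE set. The submitters' processing notes name Salmon 1.6.0 and list hg38 as build. The labels and the methods give different read layouts. The authors deposited estimated counts per gene (15.41% more than 0.01 from a whole number), TPM, and average effective transcript lengths in bases, all from tximport.

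Symbols were matched to GENCODE M21 of GRCm38. Protein-coding genes outside the mitochondrial genome with at least 1 count in 9 of 10 mice were kept (13297). Counts were rounded, TMM-scaled and tested with edgeR 4.0.16 (quasi-likelihood, Benjamini-Hochberg). limma 3.58.1 on log2(TPM + 1) or log2(TPM + 0.1), DESeq2 1.42.0, other scalings, filters and single-mouse omissions were alternatives. Each tool was run on simulated data of 5 against 5 mice. Of 100 genes simulated with a log2 fold change of 0.5 in size, edgeR called 21, DESeq2 20 and limma 7. At a size of 1 they called 81, 78 and 40 of 100. Of 13097 unchanged genes they called 3, 15 and 3. Marker sums were compared by exact permutation over 252 arrangements. CPM are scaled to the counts on the genes tested. Named genes were all members, the 2 lowest unadjusted p in each direction of each list with a mean of at least 1 CPM, Hdac6, Sirt2 and the closest gene to each member. Coding windows and 31-base words came from the GENCODE transcripts.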

Additional observations from a re-analysis of the deposited data

Results flagged for a closer look

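Among 40 sets of 5 values (each member in each group, as CPM and as TPM), 2 held a mouse far from the other 4, and chance alone gives such a mouse in about 1 of 20 sets. Tubb2a in Control mouse TT-584 was 81.9 CPM, against 41.2 to 50.0 CPM in the other 4. Tuba1b in HFD+mTAC mouse TT-592 was 25.6 TPM, against 16.7 to 19.2 TPM in the other 4, while its CPM, 344, lay within the range of its group.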

How the results depend on the processing

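The number of members and of wider-list genes past the threshold was 0 under all alternatives run (0 to 0 when single mice were left out). The 8 genes called among all tested became 118 with DESeq2, 1 with limma at either pseudocount, 1 with the length offset, 2 without TT-587 and TT-591 (an alternative chosen after seeing the data), and 1 to 9 when single mice were left out. Of 213 recomputed member values 194 kept their direction and 19 turned, all of them of Tuba1a, Tuba1b, Tubb2a, Tubb5, Atat1 or Svbp. With limma, Tuba1a was 0.0019 at both pseudocounts, Tuba1b 0.0213 and 0.0215, and Tubb5 −0.1313 and −0.1366 at pseudocounts of 1 and 0.1. Tubb5 was −0.1085 with the length offset, and Svbp −0.0397 without TT-587 and TT-591. Leaving out single mice gave −0.1621 to 0.0397 for Tuba1a, −0.0574 to 0.0246 for Tuba1b, −0.1677 to 0.1423 for Tubb2a, −0.0526 to 0.0987 for Tubb5, −0.0033 to 0.1292 for Atat1 and −0.1014 to 0.1713 for Svbp. Atat1, 0.07 in the main analysis, was 0.349 with the length offset and 0.372 and 0.4037 with limma. The endothelial marker sum had a log2 ratio of −0.14 as TPM and 0.039 as CPM. The cause of these changes was not tested. Adjusted p ranged over the alternatives from 0.271 to 0.932 for Tuba4a, 0.305 to 0.768 for Tubb4b and 0.543 to 0.886 for Ttl. No paired analysis was possible because the mouse numbers are unique to each mouse. The width of the 95% intervals sets what 5 mice a group can show, and reads shared between near-identical tubulins limit Tuba1a, Tuba1b, Tuba1c, Tubb2a and Tubb4b beyond what depth does.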
